A study of Homo sapiens with 6 samples.

Results

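The 9 genes JAK1, JAK2, TYK2, STAT2, STAT3, STAT5A, STAT5B, STAT6 and IL6ST were taken as every region of the 4 deposited region lists whose assigned gene symbol was one of them. They are 9 of the 16428 genes named in those lists. All 9 had at least 1 RNA polymerase II (RNA pol II) region: 35 of the 46045 RPB1 regions in SHP-1 WT cells, 26 of the 41605 RPB1 regions in SHP-1 KO cells, 102 of the 102674 phospho-Ser2 (pSer2) regions in WT and 72 of the 81012 pSer2 regions in KO carried one of these names.

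RPB1 is the largest subunit of RNA pol II, and phosphorylation of serine 2 in its C-terminal repeats marks the elongating enzyme. Both forms were profiled by ChIP-seq in HepG2, an established line from a human liver tumour. The SHP-1 KO cells carried a CRISPR disruption of PTPN6, the gene of the tyrosine phosphatase SHP-1. The paper describes both untransfected controls and controls with a nontargeting guide, and names the control cells of the ChIP-seq only WT. Neither line was treated. The paper describes clonal lines with and without the deletion, so SHP-1 and clone cannot be told apart. There was 1 library per antibody and cell line, with no replicate, so no spread between replicates, error or test can be given. Differences are given as the ratio of the KO to the WT fold enrichment and read against the same ratio over all genes. Fold enrichment is the signal at a region's summit over the input of the same cells, and the read depth behind it is unknown. Weak regions take few distinct folds: in STAT6, 5 separate WT RPB1 regions have the identical value of 5.01.

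Cytokine receptors of this pathway have no kinase domain of their own. A bound receptor brings together Janus kinases (JAK1, JAK2, TYK2), which phosphorylate the receptor and then STAT proteins, and paired STATs enter the nucleus and bind DNA. IL6ST (gp130) is the shared signalling chain for the interleukin-6 family, which in hepatocytes drives the acute-phase response through JAK1 and STAT3. SHP-1 has been described as a phosphatase that removes phosphate from JAKs and STATs. For STAT5 the paper cites conflicting reports, and from its own experiments it concludes that STAT5 is not a direct substrate. It proposes instead that STAT5 brings SHP-1 to the PCK1 promoter. The measurements here are of RNA pol II on the genes that encode these proteins, not of the proteins or their phosphorylation. The labelled cell type was checked on 7 hepatocyte markers. Of these, ALB, APOB, AFP, TTR, HNF4A and SERPINA1 were occupied by RPB1 at a promoter in both lines, while APOA1 had pSer2 regions with no RPB1 region assigned as promoter. PTPRC, CD3E and COL1A1, defining markers of leukocytes, T cells and fibroblasts, had no promoter RPB1 region in either line. PECAM1 had 6.35 in WT and 4.32 in KO, and CD68 had 30.4 in WT and 26.9 in KO. PTPN6 itself kept a promoter RPB1 region, with a fold of 24.0 in WT and 17.2 in KO, which is no check of a protein knockout.

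The starts over which RPB1 stood are shown by the DNA just upstream, because each of these stretches lies inside the strongest WT RPB1 region of its gene. They are from RefSeq promoters on GRCh38.p14, printed 5′ to 3′ on the strand of the gene, at most 150 bases long, and chosen to lie outside every exon and untranslated part of GENCODE release 44. All but JAK2 lie on the minus strand. Capitals mark GGGCGG or its reverse complement, the core of a GC box. The stretches are chr1:64966570-64966719 (JAK1), chr5:55995023-55995152 (IL6ST), chr17:42276414-42276563 (STAT5B), chr17:42388541-42388690 (STAT3), chr9:4984883-4985032 (JAK2), chr12:56360204-56360353 (STAT2) and chr19:10380609-10380758 (TYK2).
JAK1: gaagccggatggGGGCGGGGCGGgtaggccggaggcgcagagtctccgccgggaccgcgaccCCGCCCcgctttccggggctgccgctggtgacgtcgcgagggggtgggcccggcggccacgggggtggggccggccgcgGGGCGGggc
IL6ST: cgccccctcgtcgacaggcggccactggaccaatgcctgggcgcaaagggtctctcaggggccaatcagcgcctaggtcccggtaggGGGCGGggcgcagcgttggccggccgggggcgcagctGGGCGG
STAT5B: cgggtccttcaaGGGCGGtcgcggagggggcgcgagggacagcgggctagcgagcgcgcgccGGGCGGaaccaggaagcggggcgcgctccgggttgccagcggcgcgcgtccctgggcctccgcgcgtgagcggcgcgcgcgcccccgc
STAT3: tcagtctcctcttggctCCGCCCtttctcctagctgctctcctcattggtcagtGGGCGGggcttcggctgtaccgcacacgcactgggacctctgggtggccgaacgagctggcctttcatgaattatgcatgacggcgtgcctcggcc
JAK2: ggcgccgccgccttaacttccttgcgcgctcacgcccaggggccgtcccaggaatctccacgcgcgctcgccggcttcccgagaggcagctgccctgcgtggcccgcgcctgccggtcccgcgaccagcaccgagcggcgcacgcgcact
STAT2: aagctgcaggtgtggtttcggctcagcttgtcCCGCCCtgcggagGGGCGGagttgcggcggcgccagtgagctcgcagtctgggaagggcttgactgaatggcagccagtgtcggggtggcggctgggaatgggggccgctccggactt
TYK2: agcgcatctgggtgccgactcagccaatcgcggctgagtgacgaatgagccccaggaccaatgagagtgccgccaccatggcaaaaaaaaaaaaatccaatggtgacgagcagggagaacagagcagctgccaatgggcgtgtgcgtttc

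For each gene the RefSeq start nearest to the WT RPB1 summit was taken, within 200 bp, so closeness to the summit was set by this choice. The summit lay downstream of all 7 starts, at 164 bp for JAK1, 24 bp for IL6ST, 6 bp for STAT5B, 88 bp for STAT3, 63 bp for JAK2, 43 bp for STAT2 and 114 bp for TYK2. From the start of the GENCODE canonical transcript of JAK2, also in RefSeq, the summit lay at −123 bp, upstream of it. STAT5A and STAT6 are not shown, because none of their RefSeq starts lay within 200 bp of the summit. The WT summit lay at −239 bp from the nearest STAT5A start and at −1039 bp from the STAT6 start, upstream of both. G and C made up 63.0% of the bases in the 300-base window of TYK2, 65.3% for STAT3 and 66.3% for STAT2. The share was 72.7% for IL6ST, 73.3% for JAK2, 74.7% for JAK1 and 82.0% for STAT5B. Over 35116 RefSeq windows the median was 58.7%, with quartiles of 47.0% and 68.0%. All 7 were thus above the median, but TYK2, STAT3 and STAT2 lay between the quartiles. GGGCGG, searched on both strands, was found in 8 of the 16 windows of the 9 genes, in at least 1 window of every gene except TYK2, and in 45.0% of all windows. The TATA box core TATAAA was in none of the 16 and in 11.5% of all windows. The STAT site TTCNNNGAA was in none of the 16 and in 7.66% of all windows. These matches describe letters in a window of 250 bases before and 50 after a start. In JAK1 neighbouring GGGCGG matches share a base, as the fused run in its stretch shows.

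All 9 genes had a promoter RPB1 region in both lines, and in all 9 the strongest one was lower in KO, by between 1.01 and 2.20 times. The same direction held for 84.8% of the 11250 genes with a promoter RPB1 region in both lists, whose median ratio of KO to WT was 0.73. The median of the 9 genes was 0.66. Of the 9 genes 6, JAK1, TYK2, STAT2, STAT3, STAT5A and IL6ST, were at least 1.5-fold lower in KO, and 0 were at least 1.5-fold higher. Over all genes 38.2% were at least 1.5-fold lower and 2.12% at least 1.5-fold higher. Ratios also vary with the level in WT: among the 5941 genes at least as high in WT as STAT2, the lowest of the 8 members other than STAT5A, 43.6% were at least 1.5-fold lower. Divided by the median ratio of all genes, 1 of the 9 stayed at least 1.5-fold lower, STAT2 with 0.63. The share of all genes called after this division was not counted, but 6.71% had a ratio at or below that of STAT2.

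**Figure D1:**
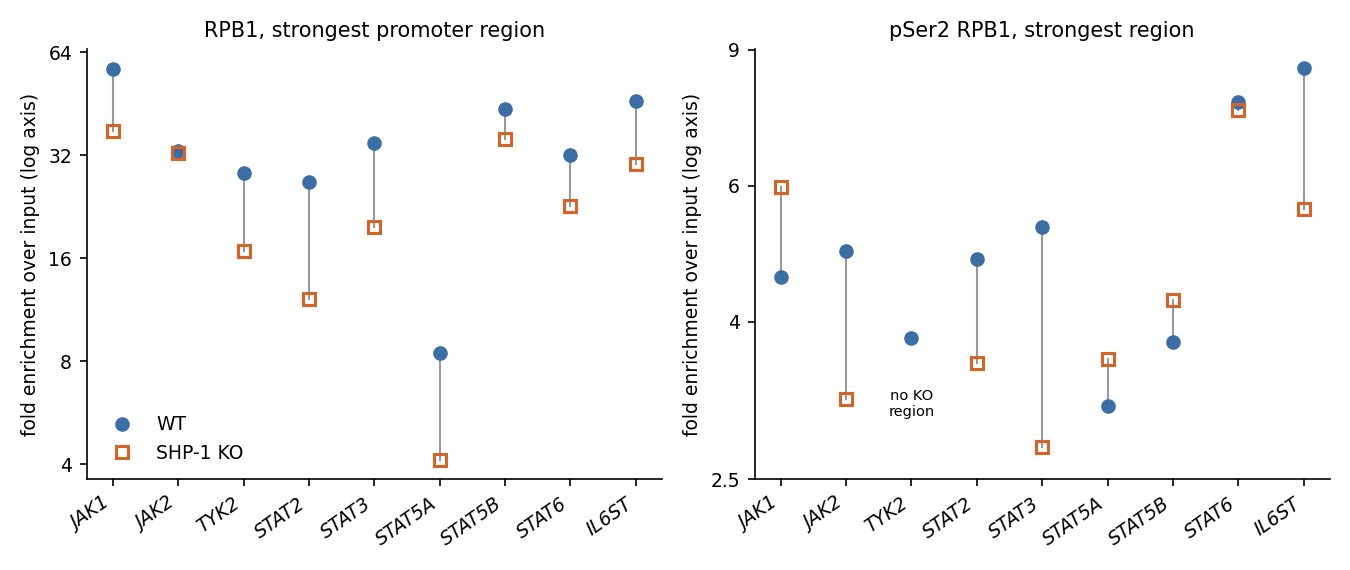
Fold enrichment over input (log axis) of each gene's strongest RPB1 promoter region and strongest pSer2 region in WT (filled circles) and SHP-1 KO cells (open squares), 1 library each. All 9 RPB1 values are lower in KO, from JAK2 (32.9 and 32.5) to STAT2 (26.7 and 12.1), whereas the pSer2 values move in either direction and TYK2 has no pSer2 region in KO. For STAT6 (RPB1) and STAT2 (pSer2) the WT and KO points are regions at different places in the gene.

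Among the kinases, JAK1 had the highest RPB1 promoter signal of the 9 genes. Its main promoter region had a fold of 57.3 in WT (chromosome 1, 64965779 to 64967005, rank 1048 of the list) and 37.6 in KO (rank 1618), a ratio of 0.66. A second promoter region of JAK1, over the start of a longer transcript 101 kb upstream, had a fold of 21.2 in WT and 10.6 in KO, a ratio of 0.50. The remaining RPB1 region of JAK1, inside the gene, went the other way, from 5.16 to 6.80. JAK2 changed least of the 9: its single RPB1 region, over the promoter on chromosome 9, had 32.9 in WT and 32.5 in KO, a ratio of 0.99, and 84.1% of all genes had a ratio at or below it. TYK2, the kinase of the type I interferon receptor, had 28.4 in WT and 16.8 in KO, a ratio of 0.59, and its RPB1 regions went from 4 to 2. The KO summit of TYK2 lay at −323 bp from the start, against 114 bp downstream in WT.

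JAK1 is the member on the short arm of chromosome 1 (1p). The 675 genes of 1p with a promoter RPB1 region in both lists had a median ratio of 0.69, against 0.73 for the 10575 genes elsewhere, and 45.3% of them were at least 1.5-fold lower. The ratio of JAK1 was at or above that of 42.8% of the 1p genes, so JAK1 stood near the middle of its arm. For the 18 genes within 5 Mb of JAK1 the median was 0.74, with quartiles of 0.65 and 0.92.

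Among the transcription factors, STAT2, a factor of the type I interferon response, had the lowest ratio of the 9. Its promoter region had a fold of 26.7 in WT (chromosome 12, 56359518 to 56361177) and 12.1 in KO, a ratio of 0.45, and 6.71% of all genes had a ratio that low or lower. The 110 genes within 5 Mb of STAT2 had a median ratio of 0.82, and 3 of them were at or below STAT2. STAT6, the factor of interleukin-4 and interleukin-13 signalling, lies in the same part of chromosome 12 and had 32.1 in WT and 22.5 in the overlapping KO region, a ratio of 0.70. STAT3, the main factor downstream of IL6ST, had 34.8 in WT and 19.8 in KO, a ratio of 0.57. The paralogs STAT5A and STAT5B, which carry growth hormone and prolactin signals, differed in level. STAT5B had a promoter fold of 43.8 in WT and 35.7 in KO, a ratio of 0.81. STAT5A had 8.48 in WT and 4.12 in KO, a ratio of 0.49, the lowest level of the 9 in both lines. Its percentile among the regions of its list, the share of regions with a fold at or below it, fell from 68.5 in WT to 15.4 in KO. The KO region of STAT5A has a −log10 q-value of 3.05, which makes it the only one of the 18 main promoter values under 5. IL6ST had a promoter fold of 46.2 in WT and 30.3 in KO, a ratio of 0.66, with a median of 0.67 over the 21 genes within 5 Mb.

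**Figure D2:**
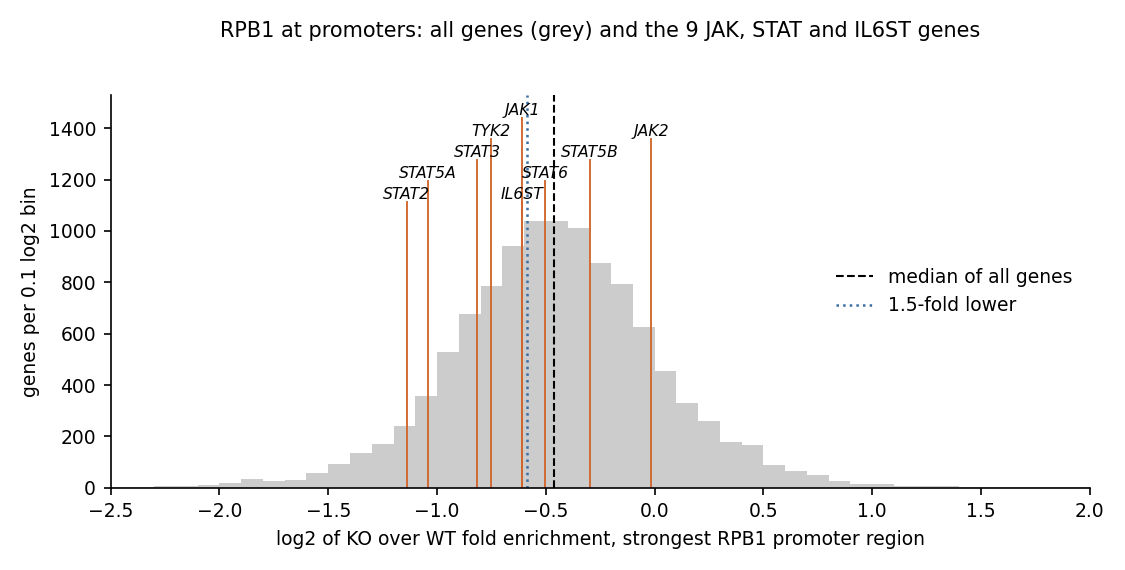
Distribution over 11250 genes of the log2 ratio of KO to WT fold enrichment at the strongest RPB1 promoter region (grey bars, genes per bin), with the 9 genes as labelled lines. The bulk of all genes lies below 0, with the median at a ratio of 0.73 (dashed). STAT2 and STAT5A stand on the lower side and JAK2 and STAT5B on the upper side of that median.

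The number of RPB1 regions per gene went from WT to KO as follows. It fell for TYK2 (4 to 2), STAT2 (2 to 1), STAT5B (3 to 2) and STAT6 (15 to 8), rose for IL6ST (2 to 4), and was equal for JAK1 (3), JAK2 (1), STAT3 (3) and STAT5A (2). Fewer regions in KO were seen in 37.5% and more in 25.2% of the 14746 genes with an RPB1 region in either list. A KO region shared at least 1 base with 18 of the 35 WT regions (51.4%), against 61.9% over the whole WT list. In the other direction, 20 of the 26 KO regions (76.9%) met a WT region, against 74.9% over the whole KO list. The strongest WT promoter region was overlapped by a KO region in all 9 genes. In STAT6 that KO region (22.5) was not the strongest KO region annotated as promoter, which lay at the 3′ end (22.7). The regions without a counterpart were weaker, most of them in STAT6.

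pSer2 regions of the 9 genes were more numerous than RPB1 regions, and the strongest of each gene had a lower fold. IL6ST held 45 of the 102 regions in WT and 47 of the 72 in KO. STAT6 had 19 in WT and 7 in KO, JAK1 had 16 and 8, STAT2 had 9 and 3, and STAT5B had 6 and 2. STAT3 had 2 and 1, and TYK2 had 2 and none. JAK2 had 1 in each line, at its promoter, and STAT5A had 2 and 3. In all, 6 genes had fewer pSer2 regions in KO, as did 59.6% of the 13303 genes with a pSer2 region in either list, and STAT5A and IL6ST had more, as did 23.1%. A complete loss of called pSer2 regions, seen for TYK2, occurred in 14.7% of the 12740 genes with a region in WT. Both WT regions of TYK2 were weak, with folds of 3.81 and 3.41. A KO region met 44 of the 102 WT regions (43.1%), against 52.2% over the whole WT list. A WT region met 47 of the 72 KO regions (65.3%), against 69.9% over the whole KO list.

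The strongest pSer2 region of each gene moved in both directions. JAK1 went from 4.58 in WT to 5.98 in KO, STAT5A from 3.11 to 3.58 and STAT5B from 3.77 to 4.27. STAT6 was nearly level at 7.71 and 7.52. For STAT2 the strongest region had 4.83 in WT, inside the gene, and 3.54 in KO, at the start, so these are different places, and the region at the start had 4.64 in WT. Of the 8 genes with a pSer2 region in both lines 3 were at least 1.5-fold lower in KO: JAK2 with 4.94 and 3.17, STAT3 with 5.31 and 2.75, and IL6ST with 8.52 and 5.60. Over the 10870 genes with a pSer2 region in both lists, 11.7% were at least 1.5-fold lower and 5.71% at least 1.5-fold higher. 0 of the 8 were at least 1.5-fold higher. The median ratio was 0.85 over the 8 genes and 0.94 over all genes. JAK1, STAT5A and STAT5B thus had a lower RPB1 promoter fold and a higher pSer2 fold in KO, although in the same 3 genes the bases covered by pSer2 regions became fewer. The JAK1 region lies past the gene end, in the last intron of the converging gene RAVER2, so its signal can belong to that gene. For STAT5A the higher pSer2 fold depends on which gene a region is assigned to. With regions taken by position its ratio was 0.68, between regions at different places.

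**Figure D3:**
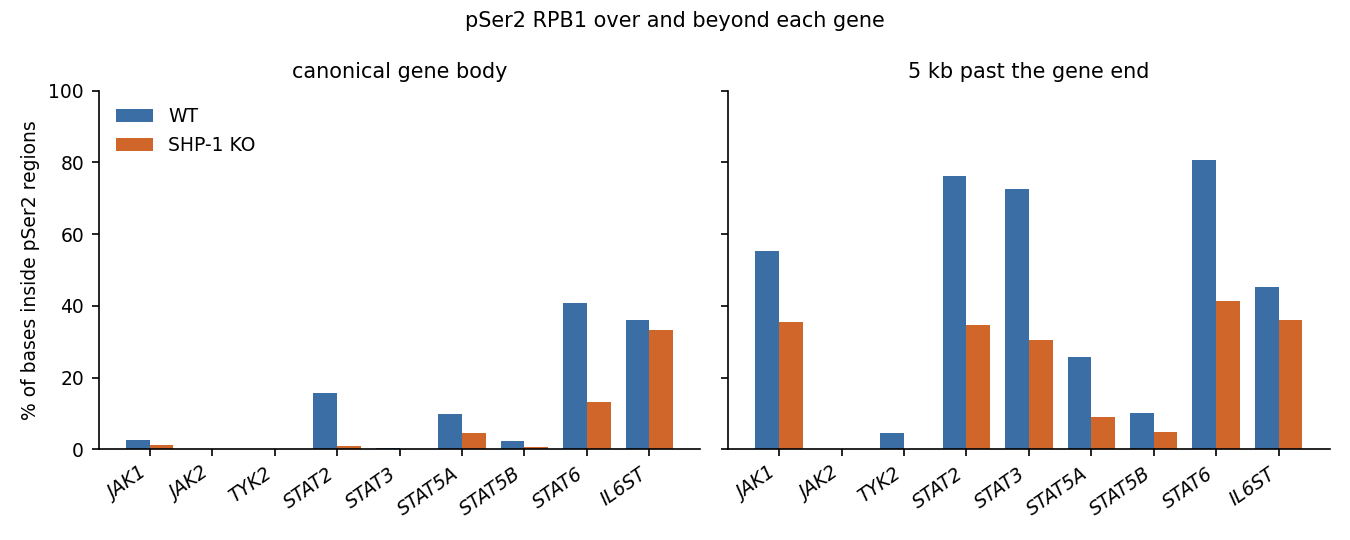
Percent of the bases of each gene's canonical transcript span (left) and of the 5 kb past its end (right) that lie inside pSer2 regions, in WT and SHP-1 KO cells. IL6ST (36.1% and 33.3%) and STAT6 (40.9% and 13.2%) lead over the gene body. In WT the share covered is higher past the end than in the body for every gene except JAK2.

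Over the gene bodies, from the start to the end of the GENCODE canonical transcript, pSer2 regions covered 36.1% of IL6ST in WT and 33.3% in KO. In STAT6 pSer2 covered 40.9% in WT and 13.2% in KO. In STAT2 the values were 15.8% and 1.08%, and in STAT5A 9.95% and 4.58%. The long genes JAK1 (2.59% and 1.15%) and STAT5B (2.30% and 0.759%) were covered little, and STAT3 had 0.274% in WT and 0 in KO. TYK2 had no covered base in either line, and JAK2 had none in WT and 0.0166% in KO. Coverage was thus lower in KO in 7 of the 9 genes, as it was in 71.5% of the 10687 coding genes covered in either list, whose medians were 9.21% and 5.95%. In WT the 5 kb past the gene end were covered more than the gene body in every member except JAK2, which had 0 in both. Over all coding genes covered in WT the medians were 36.8% past the end and 10.1% over the gene, the same direction. The highest values there were those of STAT6 (80.6% in WT and 41.4% in KO), STAT2 (76.2% and 34.8%), STAT3 (72.5% and 30.5%) and JAK1 (55.3% and 35.5%). Such regions beyond the end are read from either strand, so part of them can belong to a neighbour.

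The RPB1 level at the promoter did not rank the genes by pSer2. JAK1 had the highest promoter fold of the 9 and no pSer2 region in the first part of its body, dividing the gene into 3 equal lengths, in either line. In its last part 7.77% of the bases were covered in WT and 3.45% in KO. Its strongest pSer2 region lay past the gene end, in the last intron of RAVER2, a gene that converges on JAK1: 4.58 in WT and 5.98 in KO. Of the 16 WT regions 4 lay past the end, 11 in the gene and 1 at the upstream start. Of the 8 KO regions 3 lay past the end and 5 in the gene.

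**Figure D4:**
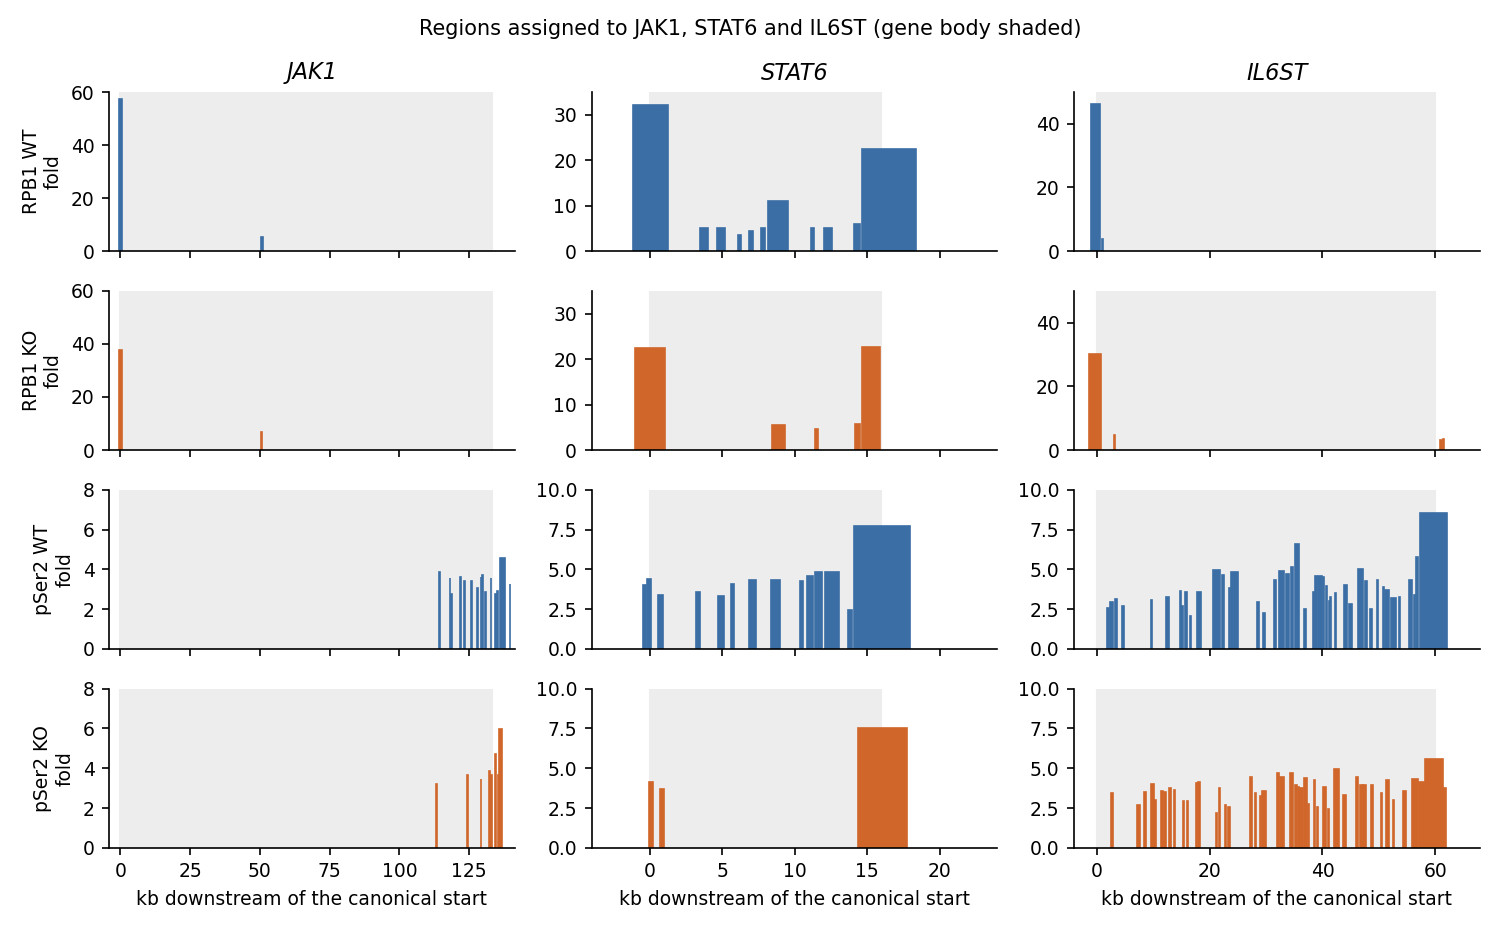
Regions assigned to JAK1, STAT6 and IL6ST by distance in kb from the canonical start, with bar height giving fold enrichment, the gene body shaded, WT in blue and SHP-1 KO in orange. RPB1 stands at the start of all 3 genes, pSer2 fills IL6ST in both lines, and the middle of STAT6 has 10 pSer2 regions in WT and 0 in KO. Over the whole WT list, 52.2% of the pSer2 regions were overlapped by a KO region. The JAK1 and STAT6 regions far upstream of the start are outside the range shown.

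IL6ST was the one gene of the 9 with pSer2 regions along its length in both lines. In WT they covered 18.5% of its first part and 50.8% of its last part, and in KO 23.0% and 43.3%. The last part was covered more than the first in 67.8% of all covered coding genes in WT. The strongest region of both lines lay over the 3′ end: 55932827 to 55937682 on chromosome 5 in WT, with a fold of 8.52, and 55933681 to 55936759 in KO, with 5.60. A KO region of 992 bp and one of 395 bp filled part of the rest of the WT stretch. The median fold over the regions of IL6ST was 3.65 in WT and 3.74 in KO. Among the 33 overlapping pairs of a WT and a KO region, the KO fold was the lower one in 23, with a median ratio of 0.88. A region can stand in more than 1 pair, as a long region can meet several short ones. The same share over the pairs of all genes was not counted, so it cannot be read as a trait of IL6ST. Inside the gene, for instance, the WT region from 55959061 to 55959782 had a fold of 6.57 and the stronger of its overlapping KO regions 3.93. RPB1 in turn was found at 2 places near the start in WT, the weaker of which (3.67) had no KO counterpart. In KO it was found at 1 place at the start, in an intron (4.62) and at 2 places past the gene end (3.37 and 3.29).

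STAT6 was the member with the most RPB1 regions, 15 in WT and 8 in KO. Of these, 4 in WT and 3 in KO lie over 10 kb upstream of its canonical start, in the introns or near the start of LRP1. They carry the name STAT6 through a longer STAT6 transcript, and without them the counts are 11 and 5. Between 3 and 14 kb downstream of the start, RPB1 had 8 regions in WT, with folds from 3.50 to 11.0, and 2 in KO, with 4.54 and 5.50. pSer2 had 10 regions there in WT, with folds from 2.47 to 4.83, and 0 in KO. Such a count was not made for other genes. Over the whole WT lists, a KO region met 61.9% of the RPB1 and 52.2% of the pSer2 regions. The summit folds at the 3′ end moved little: there, where STAT6 meets the converging gene NAB2, the RPB1 fold was 22.4 in WT and 22.7 in KO, and the pSer2 fold 7.71 and 7.52. The bases covered there did become fewer: pSer2 regions covered 72.7% of the last part of the gene in WT and 29.9% in KO, and 80.6% and 41.4% of the 5 kb past the end, where RPB1 regions covered 76.9% and 59.6%. The WT RPB1 region at that end spans 3747 bp, and 3 KO regions took its place, 2 of which are assigned to NAB2 (5.28 and 8.97). Most regions inside STAT6 are annotated as promoter, through short internal transcripts.

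STAT5B, STAT5A and STAT3 form a cluster on chromosome 17. STAT5B and STAT5A diverge, with 12.1 kb between their canonical starts. STAT5A and STAT3 converge, with 1.38 kb between their ends, and part of the signal of that stretch changes its name between the lists. The WT RPB1 region from 42311357 to 42312079 (fold 14.9) is assigned to STAT3, while the KO region within it, 42311413 to 42311818 (8.14), is assigned to STAT5A. Its neighbour in the gap, assigned to STAT3 in both lines, had 16.5 in WT and 9.27 in KO. The WT pSer2 region from 42310992 to 42313234 (5.31) is assigned to STAT3 and overlaps a KO region named STAT5A (3.50) and one named STAT3 (2.75). For this reason the rise of the strongest pSer2 region of STAT5A and part of the fall of STAT3 depend on the assignment. With regions taken by position, both genes share this WT region and a KO region of 3.58 inside STAT5A, a ratio of 0.68. That ratio sets different places against each other, since these regions do not overlap. The KO regions that do overlap the WT region had ratios of 0.66 and 0.52 to it.

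**Figure D5:**
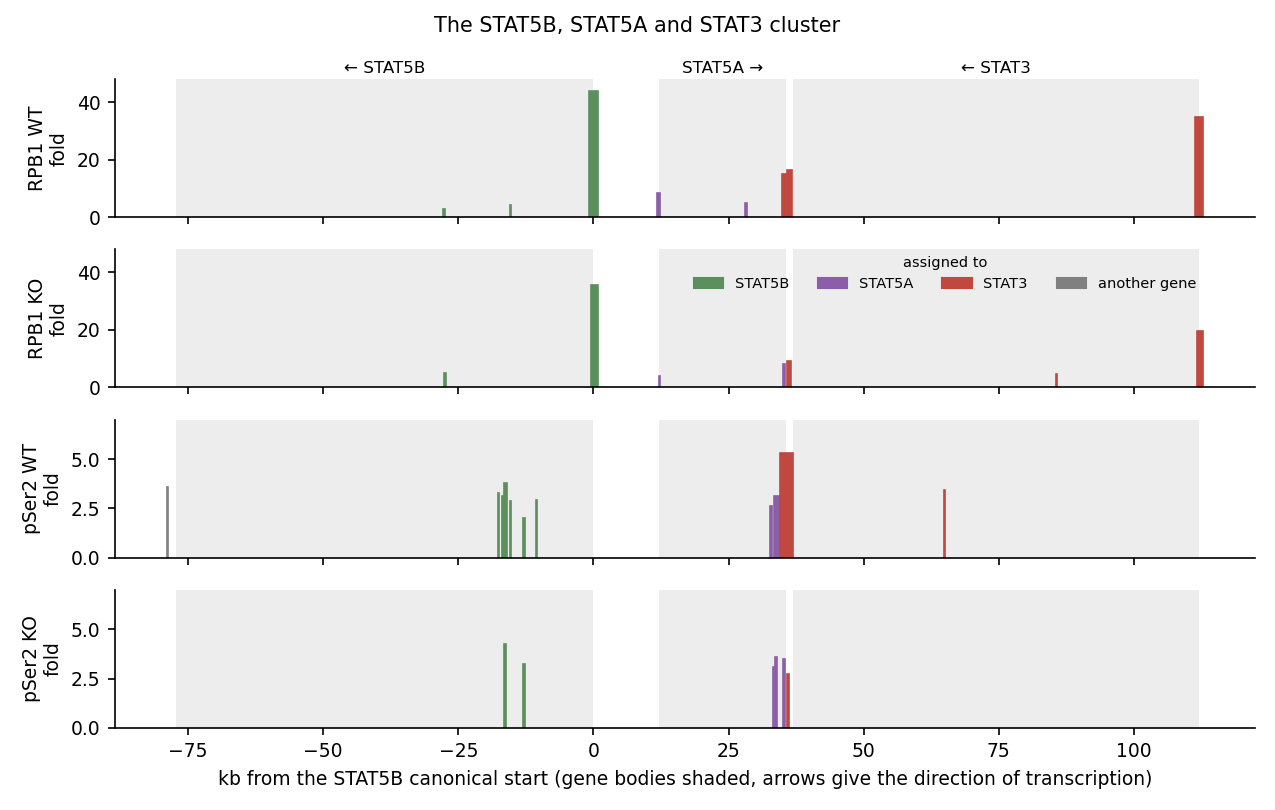
All regions between STAT5B and STAT3 in the 4 lists by distance from the STAT5B start, coloured by the gene to which they are assigned, with bar height giving fold enrichment. RPB1 peaks at the STAT5B and STAT3 starts and in the gap where STAT5A and STAT3 converge, the STAT5A start is low (8.48 in WT and 4.12 in KO), and the stretch of the gap is red in WT and partly purple in KO.

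Inside STAT5B, all 6 WT and both KO pSer2 regions lay in intron 1. One RPB1 region of STAT5B went against the promoter: 2.88 in WT and 5.11 in KO, a ratio of 1.77. In STAT2, 7 of the 9 WT pSer2 regions lay in the gene and 1 of the 3 KO regions did. Upstream of its start, pSer2 reached 4.64 in WT and 3.54 in KO, in regions that overlap. A KO region further upstream (2.95), also assigned to STAT2, is annotated in an exon of another gene, so part of this signal can belong to a neighbour.

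The other genes of the pathway were lower in KO about as often as genes in general. Among 37 further genes (JAK3 and STAT4, 24 receptor chains and 11 regulators), RPB1 occupied a promoter of 26 in WT and 25 in KO. Of the 25 with one in both, 10 (40.0%) were at least 1.5-fold lower in KO and 0 at least 1.5-fold higher, with a median ratio of 0.72. JAK3 had 18.1 in WT and 10.9 in KO, and STAT4 had no promoter region in either line. The lowest ratios were those of the receptor chains IL22RA1 (18.1 in WT and 5.62 in KO, 0.31), EPOR, the erythropoietin receptor (20.5 and 7.60, 0.37), and CSF3R, the G-CSF receptor (9.43 and 4.96, 0.53). IL10RA had a promoter region in WT only, with a fold of 5.01. Of the 15 receptor chains with a value in both lines 7 were at least 1.5-fold lower, as were 2 of the 9 regulators, groups too small to read against each other. IL6R, the ligand-binding partner of IL6ST, had 14.5 in WT and 11.1 in KO, a ratio of 0.77.

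The genes closest to each member in the percentile of their strongest region, over the 4 lists, were found by Euclidean distance in percentile points. The 2 nearest were XRN2 and DIP2A for JAK1 (0.756 and 0.919), ELOVL6 and RTN4 for JAK2 (2.63 and 6.21), and ATR and SLC25A23 for TYK2 (2.07 and 2.15). They were HBS1L and PTS for STAT2 (2.24 and 3.76), NUSAP1 and ZNF433-AS1 for STAT3 (4.46 and 5.96), and LINC01331 and MIR549A for STAT5A (7.40 and 9.47). For STAT5B they were CORO1C and NCBP3 (4.05 and 4.20), for STAT6 MED16 and RBM39 (0.760 and 1.60), and for IL6ST RNF213 and NIT1 (1.45 and 1.75). STAT5A had the most distant neighbours. The strongest region used here can be of any class: for RPB1 in KO that of STAT5A lay at its 3′ end (percentile 68.3), not at its promoter (15.4).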

How the data were processed

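HepG2 cells with and without SHP-1 gave 1 ChIP-seq library each for RPB1 and for pSer2 RPB1. The 2 input libraries are not analysed here. Trimming (Trimmomatic), alignment to hg38 (BWA) and narrow peak calling (MACS2, per library, with the matching input as background) were done by the authors, who also annotated each region with a feature and a gene. Versions are not given in the sources used here. The deposited signalValue is a ratio, namely the summit's fold enrichment relative to input, and the deposited p-value and q-value columns are −log10. The smallest −log10 q-value in the lists is 1.31. A further table of the authors holds their own comparison (window numbers up and down, p-values and adjusted p-values) and was not used. Depth per library is unknown, so no interval is given, and a weak region missing from 1 list may lie just under that value.

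Regions were taken by gene symbol, and the strongest promoter RPB1 region and the strongest pSer2 region of each gene were compared as KO over WT. A difference was called at 1.5-fold, and regions were called overlapping from 1 base. With 1 library per condition no test was run. Gene spans came from GENCODE release 44 canonical transcripts and promoter sequences from RefSeq (GRCh38.p14, the hg38 coordinates). The members and the pathway and marker lists were chosen with earlier results of these data known, and 1 gene of each list is not reported here. Genes named beyond the members were the pathway genes with a promoter region in 1 list only, the 3 lowest and 3 highest ratios past 1.5-fold, the 2 nearest genes of each member and the markers, while JAK3, STAT4, IL6R and PTPN6 were added for their role. Alternatives were a −log10 q-value of at least 5, regions by position, a reciprocal overlap of 50%, a 2-fold threshold, overlapping KO regions only, division by the median of all genes, the rank percentile and the genes of 1p. Division by the median of genes within 5 Mb, the genes at least as high in WT, and leaving out JAK1 were chosen after seeing the data. The stretch of STAT6 from 3 to 14 kb was set for that gene alone and was not among the planned comparisons. The scripts (Python 3.11.15, pandas 2.3.3, NumPy 2.4.6) were tested on simulated regions.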

Additional observations from a re-analysis of the deposited data

How the results depend on the processing

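Leaving out a replicate was not possible, because each condition has 1 library. No paired analysis was possible because the result comes from no test. With regions limited to a −log10 q-value of 5 or more, the WT RPB1 regions of the 9 genes fell from 35 to 19, the pSer2 regions from 102 to 43 in WT and from 72 to 37 in KO, the share of WT RPB1 regions overlapped by a KO region rose from 51.4% to 84.2%, and the median pSer2 ratio was 0.98 over 5 genes. STAT5A then has no promoter region in KO. With a reciprocal overlap of 50%, 17.6% of the WT pSer2 regions were overlapped. The share over the whole WT list was not counted at either setting, so 84.2% and 17.6% cannot be read as traits of these genes. At 2-fold, 2 genes (STAT2 and STAT5A) were lower at the RPB1 promoter and 0 in pSer2. The share of all genes at 2-fold was not counted, but 9.47% had an RPB1 ratio at or below that of STAT5A. After division by the median ratio of all genes, 1 gene stayed at least 1.5-fold lower for RPB1 (STAT2) and 1 for pSer2 (STAT3). Of all genes, 6.71% had an RPB1 ratio at or below that of STAT2 and 2.91% a pSer2 ratio at or below that of STAT3. The medians after division were 0.90 and 0.91. By position the medians were 0.59 and 0.68, since STAT6 then takes in the LRP1 promoter and STAT5A and STAT3 share a region. With overlapping KO regions only, the pSer2 median was 0.98 over 7 genes. The other 20 of the 35 comparisons stayed the same. For a count this means within 1.5 times, for a share within the counting interval, and for a median equal after rounding. Single ratios of the 6 called genes stayed below 1 under every alternative. JAK2 and STAT5B came to 1.36 and 1.12 after division by the median of all genes, and to 1.32 and 1.12 after division by that of their neighbours.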
